A study of Mus musculus with 2 samples.

Results

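Nuclear receptors are transcription factors that bind DNA directly, and many are switched by small lipid-soluble ligands such as oxysterols, bile acids, fatty acids, steroids, retinoids and thyroid hormone. A large group binds DNA as a pair with a retinoid X receptor (RXR), the steroid receptors bind as pairs of themselves, and orphan receptors act with no ligand or with a ligand that is always present. In liver they set lipid, bile acid, glucose and xenobiotic metabolism, and they also act in macrophages, endothelial cells and stellate cells. A list of 34 nuclear receptor genes, all present in both count matrices, was followed across liver cell types, and 33 of them had at least 20 counts over both libraries. The exception was Nr2e3, a photoreceptor gene, with 1 count in all. Over all 19059 genes, 13865 reached 20 counts.

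The data came from 1 single-cell library per genotype, made from livers of 27-week-old AEG-1ΔMAC and AEG-1fl/fl littermates whose high-fat, high-sugar diet (HF/HSD) began at 7 weeks and lasted 20 weeks. AEG-1ΔMAC mice lack AEG-1, the product of Mtdh, in myeloid cells, through Cre driven by the lysozyme M promoter, and in AEG-1fl/fl mice the floxed gene is intact. Both labels therefore carry floxed Mtdh and the same diet, and whether a library pools several livers was not stated in the sources used here. The assay hybridizes probes to the RNA of fixed cells and counts them per cell, so levels are compared here for 1 gene across cells, or as shares within a receptor family, and not between single genes. A minimum of 100 genes and a limit of 10% on mitochondrial counts left 2571 cells labelled AEG-1ΔMAC and 3508 labelled AEG-1fl/fl, with a median of 12746 and 7682 counts. The libraries shared 10 cell barcodes.

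Cells were gated on marker genes into 9 classes, with "-like" marking names that rest on these markers only. The neutrophil-like (4 and 30 cells) and dendritic cell-like classes (8 and 20 cells) were too small to be followed, which left 7. In the order of the libraries labelled AEG-1ΔMAC and AEG-1fl/fl, the 7 were hepatocyte-like (1108 and 1046 cells), macrophage-like (154 and 491), endothelial cell-like (159 and 273) and stellate cell-like cells (78 and 178). The smaller classes were T and NK cell-like (30 and 90), cholangiocyte-like (23 and 72) and B cell-like (27 and 35). A further 980 and 1273 cells fell in no class, among them 141 and 229 with markers of more than 1 nonparenchymal type. Another 348 and 380 of them met a nonparenchymal marker gate but were over its limit on the share of hepatocyte markers. The part of this unequal exclusion in the nonparenchymal cell numbers and ratios between libraries was not tested, apart from a setting without the limit. The classes held between 54543 (B cell-like) and 59681011 counts (hepatocyte-like) in the library labelled AEG-1ΔMAC and between 97871 and 63440463 in the other, so precision was highest in hepatocyte-like cells. Levels are CPM, counts scaled to a class total of 1000000. The 95% intervals, Poisson for CPM and Clopper-Pearson for ratios and shares, cover counting error only, and with 1 library per label no test between labels was possible. Mtdh itself went against the labels: macrophage-like cells had 173 counts (171 CPM) in the library labelled AEG-1ΔMAC and 69 counts (18.7 CPM) in the library labelled AEG-1fl/fl, a log2 ratio of 3.20 (2.79 to 3.62), while hepatocyte-like cells had 61.4 and 58.0 CPM. Each library is therefore called by its label only, and whether the libraries were exchanged was not tested, so no direction between them below can be read as an effect of the deletion. Hepatocyte RNA was also counted in the other classes, at 16.0% to 25.7% of its hepatocyte-like level in the library labelled AEG-1ΔMAC and 13.7% to 21.1% in the library labelled AEG-1fl/fl. A receptor level in those classes was read against that share of its hepatocyte-like level.

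The first question was in which cell type each receptor is most abundant. Of the 33 receptors, 17 had their highest CPM in the same class in both libraries, 51.5% of them, while 59.5% of the 13548 genes compared did. Hepatocyte-like cells held 4 of these receptors (Hnf4a, Nr1i2, Rxrg and Thrb; 8.17% of all genes peaked there), macrophage-like cells 3 (Nr1h3, Nr4a1 and Pparg; 6.86%), endothelial cell-like cells 2 (Rarg and Esrrg; 7.37%), stellate cell-like cells 2 (Esr1 and Ppard; 7.43%), cholangiocyte-like cells 4 (Hnf4g, Nr2f6, Nr5a2 and Thra; 12.4%), T and NK cell-like cells 2 (Nr3c1 and Nr4a3; 10.3%) and B cell-like cells 0 (7.02%). For 5 receptors, Nr1h3, Nr1i2, Hnf4a, Hnf4g and Esr1, the highest class stood above the next one beyond counting error in both libraries, against 21.3% of all genes. Without the small T, NK and B cell-like classes this held for 9 receptors, the same 5 with Nr1i3, Nr4a1, Rarg and Rora, against 30.4% of all genes. This comparison was added after the data were seen. With counts per cell in place of CPM, 8 of the 17 receptors kept their class, and Nr1h3, Nr2f6, Nr3c1, Nr5a2, Ppard, Pparg, Rarg, Esr1 and Esrrg did not, while 21 receptors were then highest in hepatocyte-like cells in both libraries. In Seurat clusters 12 kept their class, and Nr2f6, Ppard, Pparg, Thra and Esrrg did not.

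**Figure D1:**
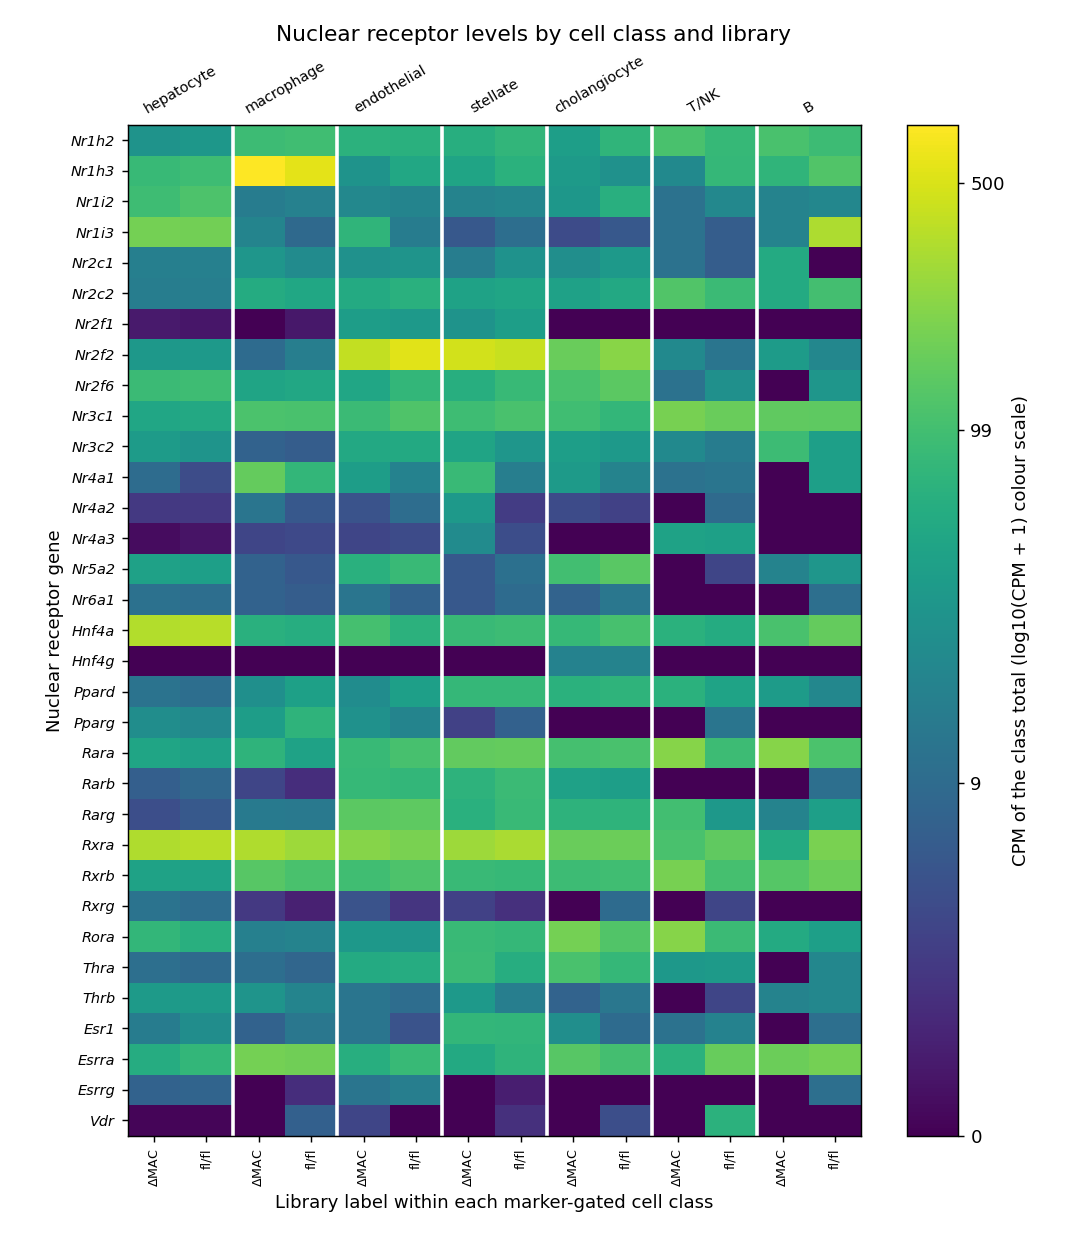
Levels of the 33 receptors (rows) in each cell class, with the library labelled AEG-1ΔMAC in the left and the library labelled AEG-1fl/fl in the right column of each pair. Colour is CPM on a log10(CPM + 1) scale. Rows are to be read across: Nr1h3 is brightest in macrophage-like cells (730 and 560 CPM), and Nr2f2 in endothelial cell-like (395 and 539 CPM) and stellate cell-like cells (467 and 417 CPM).

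The liver X receptors Nr1h3 (LXRα) and Nr1h2 (LXRβ) sense oxysterols and drive cholesterol efflux and lipid synthesis. Nr1h3 (GRCm38.p6 chromosome 2, 91184061 to 91202834) reached 730 CPM (95% interval 679 to 785) in macrophage-like cells of the library labelled AEG-1ΔMAC and 560 CPM (536 to 584) in those of the library labelled AEG-1fl/fl. Hepatocyte-like cells had 84.1 and 92.3 CPM, so macrophage-like cells were 8.69-fold (8.03 to 9.38) and 6.06-fold (5.76 to 6.37) higher. Hepatocyte RNA at the shares given above would add up to 17.0 and 13.8 CPM. Nr1h2 was spread more evenly. In the library labelled AEG-1ΔMAC it was at 28.2 CPM in hepatocyte-like, 91.0 CPM in macrophage-like and 110 CPM in T and NK cell-like cells. In the other library it ran from 31.7 CPM in hepatocyte-like to 94.6 CPM in macrophage-like cells. Nr1h3 accordingly gave 88.9% (86.6 to 91.0) and 85.5% (84.1 to 86.9) of the LXR counts in macrophage-like cells, 74.9% and 74.5% in hepatocyte-like cells, and 29.2% (18.6 to 41.8) and 43.9% (35.3 to 52.8) in endothelial cell-like cells.

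Macrophage-like cells were not uniform in these receptors. In a division made after the data were seen, 122 and 337 cells had more counts of the Kupffer cell markers Clec4f, Vsig4, Marco, Cd5l and Timd4, and 32 and 154 had as many or more of Gpnmb, Trem2, Itgax and Ms4a7, which mark lipid-associated and monocyte-derived macrophages. Nr1h3 was at 819 and 650 CPM in the first group and at 298 and 352 CPM in the second, a log2 ratio of 1.46 (1.05 to 1.90) and 0.88 (0.72 to 1.05). Rxra followed the same order, with 369 and 341 CPM against 152 and 133 CPM. Thrb, the thyroid hormone receptor β, had 34.6 and 24.0 CPM against 5.84 and 5.36 CPM, with 1 and 6 counts in the second group, and only in the library labelled AEG-1fl/fl did the interval of its ratio leave out 0 (2.16, 0.96 to 3.66). Rarg ran the other way, with 8.34 and 8.52 CPM in the Kupffer marker group against 40.9 and 25.0 CPM. Nr1h2, Rxrb, Nr3c1 and Esrra differed between these groups by at most 0.29 on the log2 scale in either library, with intervals that included 0.

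**Figure D2:**
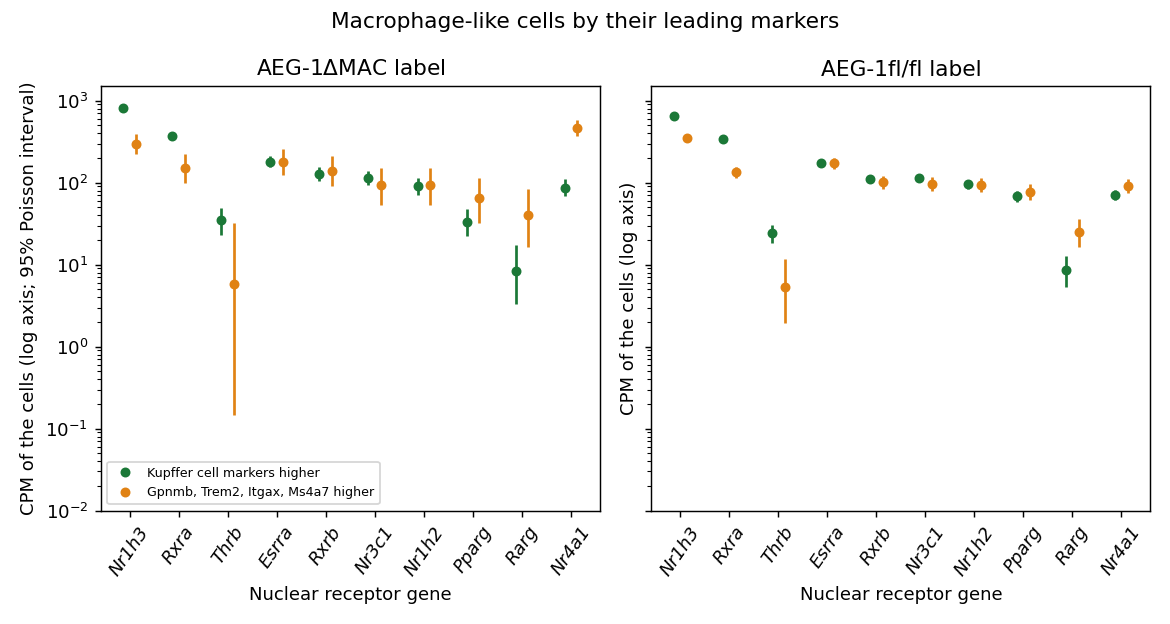
CPM (log axis) of 10 receptors in macrophage-like cells with more Kupffer cell marker counts (green) and with as many or more counts of Gpnmb, Trem2, Itgax and Ms4a7 (orange), 1 panel per library, with 95% Poisson intervals. Nr1h3, Rxra and Thrb lie higher in the green cells of both libraries and Rarg in the orange cells, while the orange Nr4a1 value of 467 CPM in the library labelled AEG-1ΔMAC stands well above the 91.2 CPM of the other library.

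The retinoid X receptors are the shared partners of the LXRs, PPARs, RARs, thyroid hormone receptors, PXR, CAR and the vitamin D receptor. Rxra was at 329 and 358 CPM in hepatocyte-like, 332 and 278 CPM in macrophage-like and 280 and 316 CPM in stellate cell-like cells, so these classes stood close together. It made up 85.7% (85.2 to 86.1) and 87.4% (87.0 to 87.8) of the RXR counts of hepatocyte-like cells, and 61.2% to 79.2% in macrophage-, endothelial cell-, stellate cell- and cholangiocyte-like cells. Rxrb supplied most of the rest there, 20.5% to 37.3%, and 11.4% and 10.3% in hepatocyte-like cells. Rxrg was low, at 11.2 and 9.62 CPM in hepatocyte-like cells.

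The PPARs sense fatty acids. Pparg, best known from adipocytes and also used by macrophages, was at 38.6 CPM (27.4 to 52.8) and 71.1 CPM (62.8 to 80.2) in macrophage-like cells and at 24.5 and 20.8 CPM in hepatocyte-like cells. In the library labelled AEG-1ΔMAC the macrophage-like level did not exceed the endothelial cell-like one (26.8 CPM) beyond counting error. Ppard was highest in stellate cell-like cells, 80.4 and 79.3 CPM, close to the 67.2 and 71.8 CPM of cholangiocyte-like cells, and this order was lost with counts per cell and in Seurat clusters. Of the summed counts of Ppard and Pparg, Pparg gave 68.5% and 67.7% in hepatocyte-like cells and 3.12% and 7.83% in stellate cell-like cells.

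The DNA element shared by most of these receptors is built from the half-site AGGTCA. In the 250 bases before each start site listed by RefSeq (GRCm38.p6), it was searched on both strands, as AGGTCA or its reverse complement TGACCT. It was found before 8 of the 50 listed starts of 31 receptors, 16.0%, and before 14% of all 32851 starts, and the receptor share was read as near that of all starts. The windows of Pparg, Rarg, Rxra and Thrb are shown because these 4 receptors bind such elements themselves and differ in level between the macrophage-like or zone groups described here. Capitals mark the half-site, and a match is a letter pattern and not a measured binding site.
Pparg start 1 (chr6:115360894-115361143, plus strand): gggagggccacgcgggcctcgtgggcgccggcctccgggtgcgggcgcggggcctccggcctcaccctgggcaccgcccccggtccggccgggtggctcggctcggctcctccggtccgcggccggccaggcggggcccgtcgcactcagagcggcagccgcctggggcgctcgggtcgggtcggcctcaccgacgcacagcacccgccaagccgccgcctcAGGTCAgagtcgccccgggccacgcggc
Pparg start 2 (chr6:115362099-115362348, plus strand): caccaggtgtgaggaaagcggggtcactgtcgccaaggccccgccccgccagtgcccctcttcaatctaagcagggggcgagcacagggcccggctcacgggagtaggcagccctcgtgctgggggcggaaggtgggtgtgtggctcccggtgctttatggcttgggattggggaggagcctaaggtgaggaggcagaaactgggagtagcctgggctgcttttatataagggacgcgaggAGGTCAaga
Rarg (chr15:102257523-102257772, minus strand): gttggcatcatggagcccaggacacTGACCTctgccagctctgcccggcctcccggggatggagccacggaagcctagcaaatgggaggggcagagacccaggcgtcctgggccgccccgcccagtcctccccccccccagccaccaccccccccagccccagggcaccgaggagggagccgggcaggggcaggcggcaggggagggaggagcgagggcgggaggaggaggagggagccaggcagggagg
Rxra (chr2:27709042-27709291, plus strand): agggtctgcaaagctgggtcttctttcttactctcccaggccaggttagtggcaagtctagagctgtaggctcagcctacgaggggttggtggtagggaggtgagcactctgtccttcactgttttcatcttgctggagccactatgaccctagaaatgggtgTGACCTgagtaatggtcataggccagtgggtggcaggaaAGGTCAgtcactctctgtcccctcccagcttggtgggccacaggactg
Thrb (chr14:17660710-17660959, plus strand): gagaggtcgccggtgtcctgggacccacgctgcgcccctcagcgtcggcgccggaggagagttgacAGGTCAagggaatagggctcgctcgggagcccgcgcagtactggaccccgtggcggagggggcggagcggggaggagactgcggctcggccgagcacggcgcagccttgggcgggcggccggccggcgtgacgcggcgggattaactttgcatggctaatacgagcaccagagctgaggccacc
The Rxra window, before the downstream of its listed starts, held 2 half-sites on opposite strands, and each of the others held 1.

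Among the receptors of hepatocyte identity and xenobiotic sensing, Hnf4a, which maintains hepatocyte gene expression, was at 339 CPM (335 to 344) and 363 CPM (359 to 368) in hepatocyte-like cells. Its level in macrophage-like cells, 65.3 and 60.5 CPM, was near the 68.6 and 54.5 CPM that hepatocyte RNA would give. Hnf4g, its close relative, had 5 and 14 counts in cholangiocyte-like cells, 17.7 CPM (5.74 to 41.3) and 17.9 CPM (9.81 to 30.1), and 1 and 3 counts in the hepatocyte-like cells, 0.0168 and 0.0473 CPM. Nr1i2 (PXR), a sensor of drugs and bile acids, was at 92.3 and 114 CPM in hepatocyte-like cells, 2.90-fold (1.53 to 6.34) and 1.81-fold (1.37 to 2.45) above cholangiocyte-like cells. Nr1i3 (CAR), which induces Cyp2b genes, was at 183 and 177 CPM in hepatocyte-like cells. In the library labelled AEG-1fl/fl its B cell-like level was higher, 327 CPM, but all 32 counts came from 1 of the 35 cells. Nr5a2 (LRH-1), a regulator of bile acid and cholesterol genes, was highest in cholangiocyte-like cells, 99.0 and 136 CPM, followed by endothelial cell-like cells, 65.5 and 85.7 CPM, against 42.0 and 39.9 CPM in hepatocyte-like cells.

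Stellate and endothelial cell-like cells shared a set of receptors that hepatocytes had little of, and cholangiocyte-like cells carried part of this set. Nr2f2 (COUP-TFII), known for venous endothelial identity, was at 395 CPM (349 to 445) and 539 CPM (497 to 583) in endothelial cell-like cells and at 467 CPM (401 to 540) and 417 CPM (383 to 453) in stellate cell-like cells, against 32.2 and 33.9 CPM in hepatocyte-like cells. The order of the 2 nonparenchymal classes turned between the libraries. Nr2f1, its paralog, was at 38.7 and 34.1 CPM and at 28.5 and 39.6 CPM in the same classes and at 0.603 and 0.504 CPM in hepatocyte-like cells. The retinoic acid receptor Rarb showed the same pattern, with 81.9 and 77.0 CPM, 70.0 and 89.0 CPM, and 6.37 and 8.21 CPM. Cholangiocyte-like cells had 0 counts of Nr2f1 in both libraries and 12 and 31 counts of Rarb. Nr2f2 made up 59.2% and 62.5% of their counts of Nr2f1, Nr2f2 and Nr2f6, against 26.3% and 26.4% in hepatocyte-like cells. Rarg made up 32.8% and 32.4% of the RAR counts of cholangiocyte-like cells. Rarg was highest in endothelial cell-like cells, 139 CPM (112 to 170) and 143 CPM (122 to 166), and made up 45.4% (38.4 to 52.4) and 43.8% (38.7 to 49.0) of their RAR counts against 6.63% and 9.53% in hepatocyte-like cells, where Rara made up 82.3% and 75.7%. The thyroid hormone receptors divided by class in a like way. Thrb gave 78.1% (76.5 to 79.7) and 80.1% (78.6 to 81.6) of their counts in hepatocyte-like cells and 75.0% (58.8 to 87.3) and 70.1% (60.0 to 79.0) in macrophage-like cells, but 17.8% and 14.3% in endothelial cell-like and 27.7% and 21.0% in stellate cell-like cells, where Thra led.

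Of the steroid receptors, Esr1, the estrogen receptor α, was highest in stellate cell-like cells, 77.8 CPM (52.5 to 111) and 75.6 CPM (61.5 to 91.8), against 15.1 and 24.1 CPM in hepatocyte-like cells. The glucocorticoid receptor Nr3c1 was found in every class, from 48.3 and 53.0 CPM in hepatocyte-like to 187 and 163 CPM in T and NK cell-like cells. The mineralocorticoid receptor Nr3c2 was at 6.93 and 5.95 CPM in macrophage-like cells, near the 7.42 and 4.43 CPM that hepatocyte RNA would give, and Nr3c1 made up 94.1% (88.3 to 97.6) and 94.8% (92.3 to 96.7) of the counts of the pair there, against 56.8% and 64.2% in hepatocyte-like cells. The estrogen-related receptor Esrra, a regulator of mitochondrial genes, was at 181 and 174 CPM in macrophage-like cells against 58.7 and 76.9 CPM in hepatocyte-like cells. Rora, which acts on clock and lipid genes, was at 184 and 122 CPM in cholangiocyte-like cells and at 78.6 and 63.8 CPM in hepatocyte-like cells. Levels above the share given by hepatocyte RNA in both libraries were found for 24 of 33 receptors in endothelial cell-like cells (73.5% of all genes), 23 in stellate cell-like (74.1%), 19 in macrophage-like (74.3%), 19 in cholangiocyte-like (69.7%), 12 in T and NK cell-like (51.8%) and 9 in B cell-like cells (33.4%). The receptor shares were near or under those of all genes in each class.

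The remaining receptors were broadly spread or scarce. The orphan receptor Nr2f6 was at 110 and 137 CPM in cholangiocyte-like and 89.7 and 94.2 CPM in hepatocyte-like cells. The testicular receptors Nr2c1 and Nr2c2 lay at 16.2 and 16.5 CPM and at 15.5 and 15.9 CPM in hepatocyte-like cells, and Nr2c2 at 57.4 and 50.3 CPM in macrophage-like cells. Nr6a1, the germ cell nuclear factor, was at 10.9 and 9.85 CPM in hepatocyte-like cells. Rara was highest among the 5 larger classes in stellate cell-like cells, at 148 and 155 CPM. The inducible receptor Nr4a1 was at 151 and 77.0 CPM in macrophage-like cells, and Nr4a2 had 12 and 19 counts there. Nr4a3 had 4 and 14 counts in T and NK cell-like cells, or 44.1 and 41.4 CPM, against 0.235 and 0.410 CPM in hepatocyte-like cells. Vdr was nearly absent from hepatocyte-like cells, with 5 and 6 counts.

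The second question was how the receptors vary along the liver lobule. Hepatocyte-like cells of each library were ranked by pericentral minus periportal marker score and cut into 3 groups of near-equal cell number, and the outer groups were compared (369 cells each in the library labelled AEG-1ΔMAC and 348 in the other). Of 29 receptors with enough counts, 4 were at least 25% higher in the pericentral group in both libraries with intervals that left out 1, against 11.0% of all 11586 genes, and 2 in the periportal group, against 4.23% of all genes. The receptor counts therefore lay near those of genes in general, and the median log2 ratio, pericentral over periportal, was 0.12 and 0.15 over the receptors and 0.14 and 0.11 over all genes.

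Esrrg (chromosome 1, 187608791 to 188214885), an estrogen-related orphan receptor of energy metabolism, fell from 14.4 through 7.12 to 1.09 CPM from the pericentral to the periportal group in the library labelled AEG-1ΔMAC, and from 14.9 through 7.66 to 1.5 CPM in the other. These are log2 ratios of 3.72 (3.13 to 4.38) and 3.31 (2.83 to 3.83), and no other receptor tested had a larger one in either library. Nr1i3 fell from 248 through 230 to 94.3 CPM and from 279 through 183 to 96.7 CPM, ratios of 1.39 (1.32 to 1.47) and 1.53 (1.46 to 1.59). Pparg fell from 29.6 to 19.1 CPM and from 28.5 to 13.9 CPM, ratios of 0.63 (0.45 to 0.82) and 1.04 (0.85 to 1.24). Nr4a2, at no more than 2.66 CPM in any group, had ratios of 1.26 (0.52 to 2.04) and 1.03 (0.37 to 1.70), and its call did not hold without the tenth of the hepatocytes with the most counts.

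Esr1 (chromosome 10, 4611593 to 5005614) ran in the opposite direction, from 4.58 through 12.1 to 26.0 CPM and from 8.45 through 17.2 to 40.6 CPM, log2 ratios of -2.51 (-2.85 to -2.17) and -2.26 (-2.51 to -2.03). Nr4a1, an immediate-early receptor, had -1.55 (-1.93 to -1.18) and -0.62 (-1.11 to -0.13), and its call did not hold in the outer sixths of the ranking or without the cluster described next. Hnf4a was nearly level along the ranking, at -0.07 (-0.12 to -0.03) and -0.13 (-0.17 to -0.08), and so was Nr2f6, at 0.02 and -0.04. Rxra lay slightly higher in the pericentral group, by 0.34 (0.29 to 0.38) and 0.20 (0.16 to 0.24). Nr1i2 and Rarb differed between the libraries in this respect. Nr1i2 had 0.12 (0.02 to 0.21) in the library labelled AEG-1ΔMAC and 0.40 (0.32 to 0.48) in the other, and Rarb had -0.02 (-0.39 to 0.34) and 0.68 (0.39 to 0.98), and neither difference was tested.

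**Figure D3:**
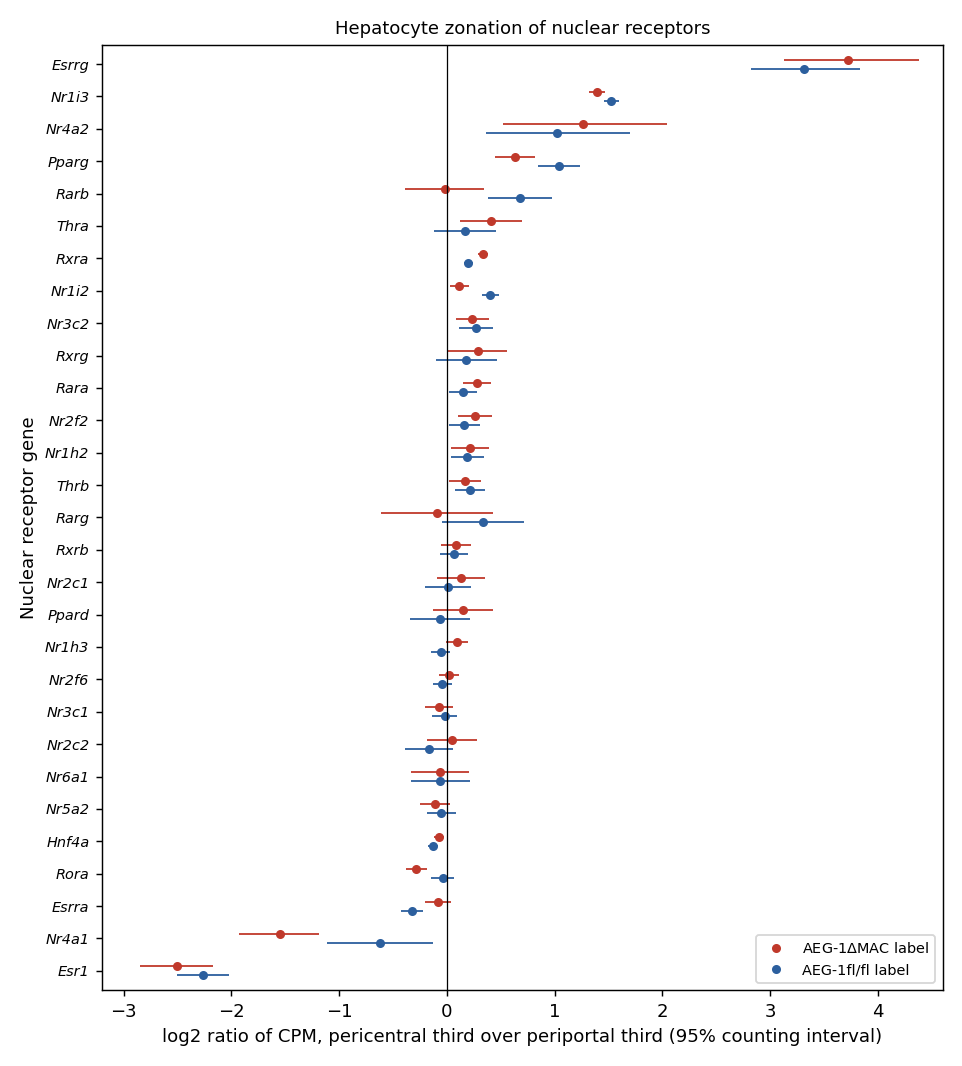
Log2 ratio of CPM, pericentral over periportal group, for the 29 receptors tested, with 95% counting intervals (red, library labelled AEG-1ΔMAC; blue, library labelled AEG-1fl/fl). Esrrg (3.72 and 3.31) and Esr1 (-2.51 and -2.26) lie at the ends, and most receptors lie close to 0.

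Nr1i3 was also unevenly shared among hepatocyte-like cells. In a clustering of all cells with Seurat, 1 of the 4 hepatocyte clusters had Nr1i3 as its first leading gene, followed by Mlxipl, Snhg11 and Nlrp6. It held 232 of the hepatocyte-like cells (20.9%) labelled AEG-1ΔMAC and 152 (14.5%) labelled AEG-1fl/fl, and 50% and 42.4% of all their Nr1i3 counts. Nr1i3 was at 678 and 641 CPM in these cells and at 106 and 116 CPM in the other hepatocyte-like cells. The zonation of Nr1i3, Esrrg, Pparg and Esr1 kept its call when the cluster was left out. Clustering used these same cells and genes, so the values of the cluster are a description.

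The cells of this cluster also differed in technical measures. Their median share of mitochondrial counts was 1.57% and 1.51%, against 3.47% and 3.31% in the other hepatocyte-like cells, and hepatocyte marker genes made up 8.71% and 8.23% of their counts against 14.5% and 13.5%. The part of these differences in the receptor values was not tested. Nr3c2, at 106 and 66.9 CPM against 25.9 and 24.6 CPM, Esrrg, at 19.5 and 24.6 CPM against 5.09 CPM in both, and Nr6a1, at 28.1 and 23.1 CPM against 8.17 and 8.09 CPM, were the next highest by ratio. In all, 11 of 29 receptors were at least 1.5-fold higher inside the cluster in both libraries, against 32.7% of all genes, which is close to the receptor share of 37.9%. The median log2 ratio was 0.62 and 0.53 over the receptors and 0.52 and 0.34 over all 10498 genes.

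**Figure D4:**
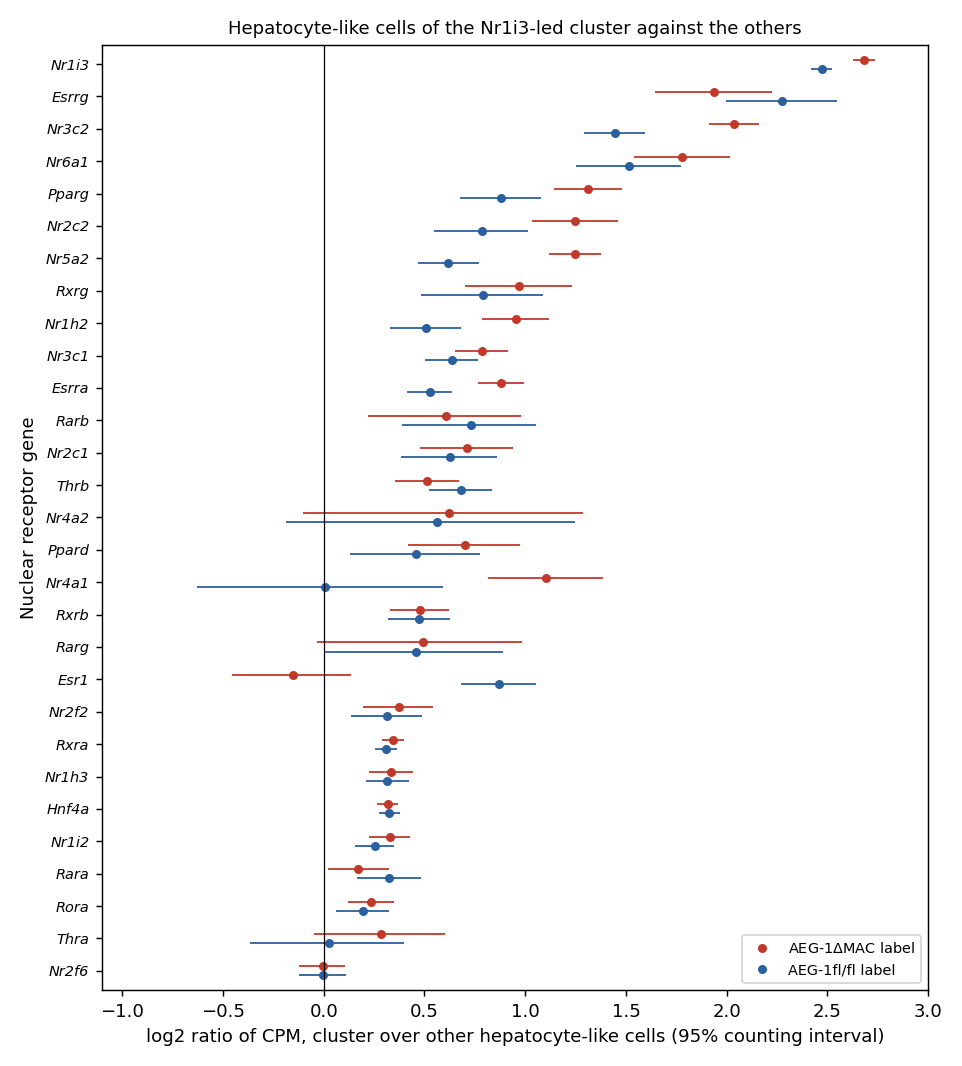
Log2 ratio of CPM, hepatocyte-like cells of the Nr1i3-led cluster over the other hepatocyte-like cells, for 29 receptors, with 95% counting intervals (red, library labelled AEG-1ΔMAC; blue, library labelled AEG-1fl/fl). Nr1i3 (2.68 and 2.47) is at the top, and Hnf4a, Rxra and Nr1h3 lie between 0.31 and 0.35 in both libraries.

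The third question was how receptor levels differed between the libraries. A receptor was counted where it differed by at least 1.5-fold (0.585 on the log2 scale) with an interval that left out equality. Hepatocyte-like cells, the most deeply counted class, had 1 of 31 receptors higher in the library labelled AEG-1ΔMAC, against 5.15% of all genes, and 1 lower, against 6.55%. Nr4a1 was at 9.22 CPM (8.46 to 10.0) against 3.61 CPM (3.16 to 4.11), a log2 ratio of 1.35 (1.13 to 1.58), with counts in 241 of 1108 and 131 of 1046 cells. It was higher in all 3 groups of the zone ranking, by 0.64 (0.12 to 1.17) in the pericentral, 1.43 in the middle and 1.57 in the periportal group, each with an interval that left out 0. Macrophage-like cells had 151 and 77.0 CPM of Nr4a1, and the part of macrophage RNA in its hepatocyte-like values was not tested. Esr1 was at 15.1 against 24.1 CPM, -0.67 (-0.79 to -0.55), and lower in each group, by -0.88, -0.52 and -0.64. The median log2 ratio of the receptors was -0.03, and that of all genes 0.01. Receptors that differed by less than 1.5-fold with intervals that left out 0 included Rora (0.30), Nr3c2 (0.31), Pparg (0.24), Esrra (-0.39) and Nr1i2 (-0.30). Rarg (228 against 337 counts) and Rarb (380 against 521 counts) were also among them, both lower in the library labelled AEG-1ΔMAC.

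Macrophage-like cells had 5 of 27 receptors higher in the library labelled AEG-1ΔMAC, against 7.64% of all genes, and 3 lower, against 4.03%. The higher ones were Nr4a1 (0.97, 0.68 to 1.26), Nr4a2 (1.21, 0.03 to 2.33), Nr1i3 (1.12, 0.22 to 1.98), Rara (0.71, 0.29 to 1.12) and Thrb (0.69, 0.02 to 1.33). Without the cell with the most counts of the gene in each library, Nr4a1 and Rara kept their call and Nr4a2, Nr1i3 and Thrb lost it. Of the lower ones, Pparg (-0.88, -1.41 to -0.39) had 39 counts in 19 of 154 cells against 263 counts in 143 of 491 cells, and Ppard had -0.68 (-1.34 to -0.07). Vdr, the vitamin D receptor, had 0 counts against 24 counts in 19 cells, at least 2.19-fold lower with 3 counts allowed for the library at 0. Vdr reached 20 counts only through the library where it was higher, and it was not called from 50 counts. Among the 26 receptors with counts in both libraries, 5 were higher and 2 lower. Nr1h3 was higher by 0.38 (0.26 to 0.51), below the 1.5-fold limit. In Seurat clusters named by the same markers, the calls of Pparg, Ppard and Vdr were kept and those of all 5 higher receptors were lost.

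In the macrophage-like cells with more Kupffer cell marker counts, Pparg had a ratio of -1.03 (-1.66 to -0.45) and Nr1h3 of 0.33 (0.20 to 0.46). In those with as many or more counts of Gpnmb, Trem2, Itgax and Ms4a7, Pparg had -0.28 (-1.33 to 0.63), on 11 and 87 counts. Of these 11 counts, 6 came from 1 cell. Without the cell with the most counts in each library, Pparg had -1.26 (-2.92 to 0.03) there. In the Kupffer marker group it then had -1.32 (-2.07 to -0.65), so the 2 groups did not differ clearly in this respect. Nr4a1 differed more in the cells with as many or more counts of Gpnmb, Trem2, Itgax and Ms4a7, at 467 against 91.2 CPM. Its ratio was 2.36 (1.92 to 2.79) there and 0.29 (-0.12 to 0.69) in the Kupffer marker group. Of the 80 Nr4a1 counts in the 32 cells of the former group labelled AEG-1ΔMAC, 49 came from 1 cell. Without the cell with the most counts in each library the ratio there was 1.38 (0.73 to 1.99), at 189 against 72.9 CPM. In the Kupffer marker group, 38 of the 183 Nr4a1 counts labelled AEG-1fl/fl came from 1 cell. Without the top cells its ratio was 0.51 (0.07 to 0.93), an interval that left out 0. Hepatocyte RNA differed too. Of 42 hepatocyte genes in macrophage-like cells, 17 were higher and 0 lower in the library labelled AEG-1ΔMAC, with a median log2 ratio of 0.50, and Nr1i3 itself, at 18.8 and 8.65 CPM, lay under the 37.0 and 26.6 CPM that hepatocyte RNA would give.

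Endothelial cell-like cells had 3 of 25 receptors higher, against 4.61% of all genes, and 2 lower, against 5.27%. Nr1i3 had 50 against 17 counts (2.32, 1.51 to 3.21), 30 of the 50 from 1 cell. Nr4a1 had 26 against 20 counts (1.15, 0.25 to 2.06) and lost its call without the top cell, and Hnf4a (0.59, 0.11 to 1.08), at 104 and 69.1 CPM, lay near the 87.2 and 72.1 CPM that hepatocyte RNA would give. With hepatocyte RNA subtracted, the calls of Nr1i3 and Hnf4a were lost. Nr1h3 (-0.84, -1.67 to -0.07) and Nr2f6 (-0.65, -1.27 to -0.05) were lower. In Seurat clusters none of these 5 calls was kept. In stellate cell-like cells 1 of 23 receptors was higher, against 5.67% of all genes, and 0 lower, against 4.77%. It was Nr4a1, with 33 against 21 counts (2.44, 1.61 to 3.31), 22 of the 33 in 1 cell, and the call was lost without that cell. Cholangiocyte-like cells had Rora higher (0.60, 0.08 to 1.10), 1 of 21 receptors against 4.67% of all genes, and 0 lower, against 5.82%. The Rora call was lost without the top cell and in Seurat clusters.

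T and NK cell-like cells had 3 of 13 receptors higher, against 4.83% of all genes, and 2 lower, against 5.29%. Rora (1.31, 0.42 to 2.18) and Rara (1.27, 0.38 to 2.12) kept their call without the top cell, while Rarg (1.61, 0.16 to 3.02) did not. Esrra was lower (-1.24, -2.75 to -0.03), and the 23 counts of Vdr, which had 0 in the other library, came from 1 cell labelled AEG-1fl/fl. Vdr was thus tested here only through the library where it was higher. Among the 12 receptors with counts in both libraries, 3 were higher and 1 lower. In Seurat clusters the calls of Rora and Esrra were kept, and those of Rara, Rarg and Vdr were lost. With no limit on the hepatocyte share, the calls of Rora, Rara and Rarg were lost. Esrra lost its call with the mean over cells of counts per 10000. B cell-like cells had 0 of 7 receptors higher, against 6.28% of all genes, and 2 lower, against 7.46%. Both calls, Nr1i3 and Rxra, were lost without the top cell and in Seurat clusters.

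**Figure D5:**
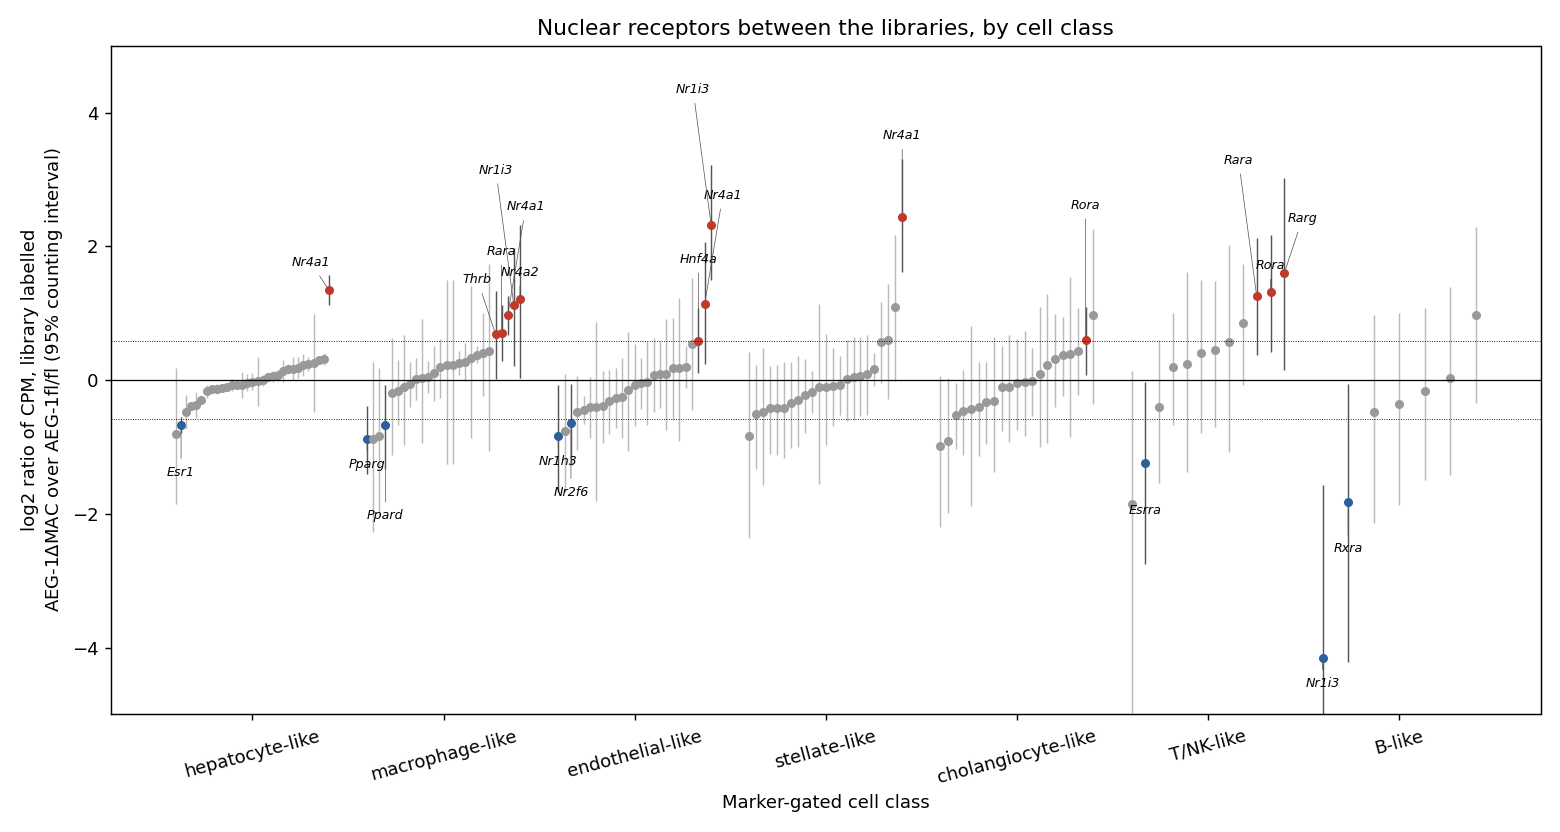
Log2 ratio of CPM, library labelled AEG-1ΔMAC over library labelled AEG-1fl/fl, for each receptor with at least 20 counts in a class, ordered by value within the class, with 95% counting intervals cut at -5 and 4. Receptors at least 1.5-fold higher (red) or lower (blue) are named, dotted lines mark 1.5-fold, and Vdr, with 0 counts in 1 library, is not drawn.

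The other genes of the receptor pathways were followed through lists of textbook members. In hepatocyte-like cells 5.15% of all genes were higher and 6.55% lower by the same rule, and in macrophage-like cells 7.64% and 4.03%, so a call or so in a list of 10 lies near the background. The coregulators, such as the Ncoa coactivators and Ncor corepressors, were close to level: 0 of 20 were higher and 1 lower in hepatocyte-like cells (Trim24, 25.0 against 40.1 CPM, -0.68), and 0 of 19 differed in either direction in macrophage-like cells. Of 10 LXR targets in hepatocyte-like cells, 3 were higher in the library labelled AEG-1ΔMAC and 0 lower, with a median ratio of 0.02. These were the sterol exporters Abcg5 (437 against 177 CPM, 1.30) and Abcg8 (195 against 95.8 CPM, 1.03) and Mylip (0.92), a ligase that degrades the LDL receptor. Mylip was at 9.25 and 4.90 CPM in hepatocyte-like cells, but at 500.5 and 468.0 CPM in endothelial cell-like cells. Whether endothelial cell RNA contributed to its hepatocyte-like values was not tested. Of 10 LXR targets in macrophage-like cells 2 were higher and 0 lower, Abcg5 (81.1 against 18.7 CPM) and Abcg8 (37.6 against 12.4 CPM). Both lay at or below the level that hepatocyte RNA would give there. Of 9 CAR and PXR targets, 3 were higher, Cyp2b9 (15.7 against 1.09 CPM, 3.85), Cyp2b13 (1.04 against 0.0788 CPM, 3.72) and Cyp2b10 (2.75 against 0.757 CPM, 1.86), and 1 was lower, while Nr1i3 itself had a ratio of 0.05 (0.01 to 0.09).

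Of 10 PPAR targets in hepatocyte-like cells, 0 were higher and 3 lower, Pdk4 (-1.03), Fabp4 (-0.95) and Angptl4 (-0.68), with a median of -0.18. Of 6 retinoid targets with enough counts, 2 were higher, the retinoic acid hydroxylases Cyp26a1 (5.35 against 2.33 CPM) and Cyp26b1 (7.34 against 3.33 CPM), and 0 lower. Cyp26b1 was at 332 and 366 CPM in endothelial cell-like cells. The part of endothelial cell RNA in its hepatocyte-like values was not tested. Among 10 glucocorticoid targets in hepatocyte-like cells 1 was higher (Tsc22d3, 0.64) and 0 lower. Among 9 thyroid hormone targets there 0 were higher and 1 lower (Thrsp, -0.58). Of 10 PPAR targets in macrophage-like cells, 1 was higher and 1 lower, with a median of -0.09. The higher one was the lipid droplet protein Plin4 (99.9 against 42.7 CPM, 1.23). Plin4 was at 628 and 446 CPM in hepatocyte-like cells, and both macrophage-like values lay below the level that hepatocyte RNA would give. The lower one was the fatty acid binding protein Fabp4 (35.6 against 80.0 CPM, -1.17).

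Nr4a1 belongs to the immediate-early genes, which rise within minutes of a stimulus, tissue handling included. Of 17 such genes in hepatocyte-like cells 3 were higher and 2 lower, of 16 in macrophage-like cells 7 were higher and 0 lower (median 0.44), of 13 in endothelial cell-like cells 3 were higher and 0 lower (median 0.52), and of 16 in stellate cell-like cells 0 were higher and 3 lower (median -0.04). Of 11 in cholangiocyte-like cells 1 was higher and 4 lower (median -0.11). All genes were called higher and lower at 5.15% and 6.55%, 7.64% and 4.03%, 4.61% and 5.27%, 5.67% and 4.77%, and 4.67% and 5.82% in these classes, in the same order. Clock genes differed as well: of 15 in hepatocyte-like cells 3 were higher, among them Npas2 (2.33) and Arntl (1.77), and 3 lower, among them Per3 (-1.17). Of 14 in macrophage-like cells 2 were higher and 2 lower. Of 12 in endothelial cell-like, 12 in stellate cell-like and 10 in cholangiocyte-like cells, 1 was higher and 5 lower in each class. The time of collection was not given in the sources used here, and the part of either list in the receptor values was not tested. Y-linked genes (Ddx3y, Uty, Kdm5d and Eif2s3y) summed to 136 and 133 CPM in hepatocyte-like cells, near the same level in both libraries.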

How the data were processed

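Livers were flash-frozen, fixed and dissociated, and RNA was counted per cell with the 10x probe-based fixed RNA assay. The authors made the deposited matrices of whole-number counts per gene and cell with Cell Ranger against mm10 (version 7.1.0 in the submitters' processing notes). Cells were kept from 100 genes and up to 10% mitochondrial counts (2571 of 2581 and 3508 of 3535). A cell entered a nonparenchymal class when at least 3 of the class marker genes had counts. The summed share of these markers also had to be 10 times or more that in cells rich in hepatocyte markers. No close second type was allowed, and hepatocyte markers had to be under 0.5 of the hepatocyte median. Hepatocyte-like cells needed at least 5000 counts and at least that share. No doublet caller was run. Cells with a close second nonparenchymal type were in no class, while cells with a weaker second type stayed in theirs. Macrophage markers summed to 5189 and 4455 CPM in B cell-like and 1245 and 5226 CPM in T and NK cell-like cells. In hepatocyte-like cells they summed to 941 and 755 CPM.

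Counts were summed per library and class (79483780 and 90081981 counts over all kept cells). CPM had exact Poisson intervals, and ratios and shares had Clopper-Pearson intervals (Python 3.11.15, SciPy 1.17.1, NumPy 2.4.6, pandas 2.3.3). With 1 library per label, no p-value was computed. A gene was compared in a class from 20 summed counts and called from 1.5-fold, or 25% between zones, with an interval that left out equality. The level that hepatocyte RNA would give is its hepatocyte-like CPM times the summed share of 42 hepatocyte genes in the class over that in hepatocyte-like cells. Alternative clusters came from Seurat 5.3.0 in R 4.3.3. All receptors with 20 counts were named, and from each target list at most the 3 members with the largest ratio past the fold, with Mtdh and the Y-linked genes. Members and lists were chosen with earlier results of these data known. The macrophage division, the Nr1i3-led cluster, the 5 larger classes, the count without the top cell and the class without a hepatocyte share limit were added after the data were seen. The calculations were tested on simulated counts.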

Additional observations from a re-analysis of the deposited data

Results flagged for a closer look

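Nr1i3 was at least 1.5-fold higher in the library labelled AEG-1ΔMAC in some classes and lower in another, and this difference between classes was not tested. Its log2 ratio was 1.12 in macrophage-like cells (19 against 32 counts) and 2.32 in endothelial cell-like cells (50 against 17 counts, 30 of the 50 in 1 cell). In B cell-like cells it was -4.16 (1 against 32 counts, all 32 in 1 cell). Without the cell with the most Nr1i3 counts in each library, the macrophage-like and B cell-like calls were lost. The endothelial cell-like call was kept there, at 30.8 against 13.2 CPM, under the 47.1 and 35.2 CPM that hepatocyte RNA would give, and it was lost with hepatocyte RNA subtracted and in Seurat clusters.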

How the results depend on the processing

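No paired analysis was possible because each label has 1 library, and for the same reason no library could be left out. The number of receptors highest in hepatocyte-like cells in both libraries was 4, and it was 21 with counts per cell in place of CPM and 8 with Seurat clusters. In macrophage-like cells it was 1 with counts per cell, 6 with no limit on the hepatocyte marker share and 5 without the T, NK and B cell-like classes. In endothelial cell-like cells it was 0 with counts per cell and 1 with Seurat clusters, in stellate cell-like cells 1 with counts per cell and 4 without the T, NK and B cell-like classes, and in cholangiocyte-like cells 2 with Seurat clusters. Counts per cell follow the depth of each class, which is largest for hepatocytes. Receptors higher in the periportal group fell from 2 to 1 in the outer sixths and without the Nr1i3-led cluster, each time through Nr4a1. The 14 pairs of receptor and class that were higher became 5 with Seurat clusters and 7 without the top cell. The 10 lower pairs became 22 with no limit on the hepatocyte share, 6 from 50 counts and 16 with hepatocyte RNA subtracted. Log2 ratios that turned sign were Nr4a1 in endothelial cell-like cells (-0.19) and Ppard in stellate cell-like cells (-0.72) with Seurat clusters, and Hnf4a in stellate cell-like cells (0.89) with the mean over cells. With no limit on the hepatocyte share, Nr3c2 in cholangiocyte-like cells (-0.93), Nr1h2 in T and NK cell-like cells (-0.84) and Nr3c1 in B cell-like cells (-0.65) turned. Except for counts per cell, the cause of these shifts was not tested. Depth limits the small classes most, since the B cell-like class held 54543 and 97871 counts.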
